A study of Mus musculus with 20 samples.

Results

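The subunits of the mitochondrial respiratory chain and ATP synthase were examined in the livers of mice given benzo(a)pyrene (BaP), a polycyclic aromatic hydrocarbon, by mouth. Members were chosen by name. A probe belonged when its accession mapped to a gene named *Ndufa*, *Ndufb*, *Ndufc*, *Ndufs* or *Ndufv* with a number (complex I), *Sdha* to *Sdhd* (complex II), *Uqcr* or *Cyc1* (complex III), *Cox4* to *Cox8* (complex IV) or *Atp5* (complex V), with pseudogenes left out. This gave 82 genes on 100 of the 41174 probes of the array: 35 genes of complex I, 4 of complex II, 8 of complex III, 18 of complex IV and 17 of complex V. A gene was placed in a complex by its name alone, here and below, and a name need not match the place of the protein. A liver signal that exceeded the negative control spots on 4 or more of the 5 arrays in some group, called present below, was found for 97 of these probes and 79 of these genes, beside 27346 probes and 12986 named genes in all. Values are given for the present probe of highest mean brightness of each gene.

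The 20 mice were males of the transgenic Muta™Mouse strain 40.6, 25 weeks old, and every group carried the same bacterial *lacZ* reporter transgene. Groups of 5 received olive oil alone (control) or BaP at 25 (low dose), 50 (middle dose) or 75 mg/kg/day (high dose) by oral gavage over 28 days, and liver was collected 3 days after the last dose. The description of the series gives a slightly different low dose, and the dose on the sample labels was used. Liver RNA carried Cy5 and a universal mouse reference RNA, pooled from cell lines, carried Cy3 on every array, without dye swaps. A value below is therefore the log2 ratio of liver over reference for 1 probe, a log2 change is the difference of that ratio between a dose group and the controls, and ratios of different probes are not levels that can be ranked.

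The labels name both liver and lung. All 10 hepatocyte marker genes found on the array were well above background on all 20 arrays, with control ratios between 3.68 and 6.91, whereas the surfactant genes *Sftpb* and *Sftpc*, which define alveolar cells, were so on 0 arrays. The other lung markers were mixed. Of all 8 lung epithelial markers 5 were present, with *Lamp3* well above background on 20 arrays, *Sftpd* on 19 and *Sftpa1* on 16, and the control ratios of the 8 ran from -0.50 to 0.97. In a tissue sample, fewer cells of a type and less RNA per cell cannot be told apart. The arrays lay on 6 slides. Slides 1 to 3 held 1 array of each group, slides 4 and 5 held 1 array each of the low and high dose groups, and slide 6 held 2 controls and 2 arrays at the middle dose. Position on the slide followed the dose closely, so dose and position cannot be told apart. The share of spots with liver signal well above background ran from 51.9 to 67.5%, and the highest value belonged to control replicate 1.

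The respiratory chain sits in the inner mitochondrial membrane. Complex I (NADH dehydrogenase) and complex II (succinate dehydrogenase, also an enzyme of the citric acid cycle) pass electrons to ubiquinone, complex III passes them to cytochrome c, complex IV (cytochrome c oxidase) passes them to oxygen, and complex V (ATP synthase) uses the proton gradient that the others build. Complexes I, III, IV and V also contain subunits encoded by mitochondrial DNA, which were not analysed here. Liver, which depends on oxidative metabolism for gluconeogenesis, urea synthesis and fatty acid oxidation, is rich in mitochondria.

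In control livers most subunits gave more signal than in the reference RNA. The ratio was above 0 for 72 of 79 genes and above 1 for 32, with a median of 0.87 against -0.0072 over all present genes and -1.79 over 78 ribosomal protein genes. The median was 0.95 in complex I, 1.36 in complex II, 1.18 in complex III, 0.32 in complex IV and 0.74 in complex V. The order of the complexes was not tested. All 4 genes of complex II and all 8 of complex III lay above 0, whereas 5 of the 15 present genes of complex IV lay below it.

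**Figure D1:**
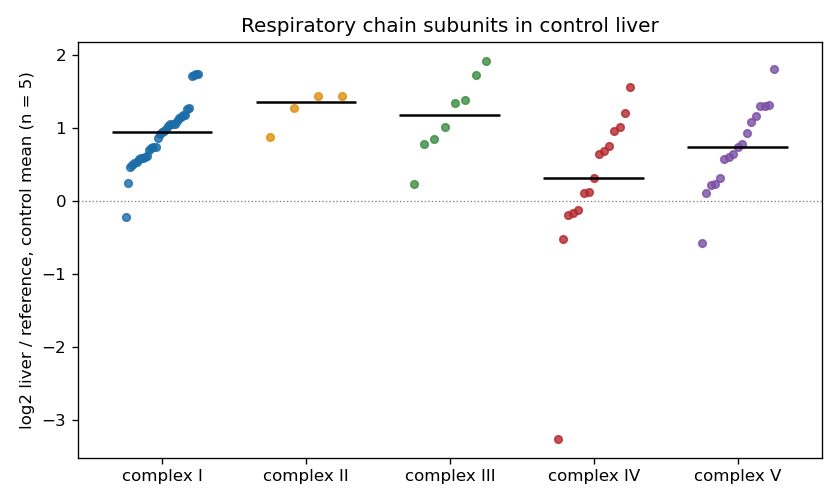
Mean log2 ratio of liver over reference in the 5 control arrays (vertical axis) for each present subunit gene (points, sorted within a complex), with the median of each complex as a bar. Complex II and III genes all lie above 0, and *Cox6a2* in complex IV lies far below the rest at -3.26.

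In complex I, *Ndufs6*, an accessory subunit that binds zinc, had the highest control ratio (1.75 ± 0.15, SD, n = 5) and *Ndufb8*, an accessory subunit of the membrane arm, the lowest (-0.22 ± 0.19, SD, n = 5). In complex II, the flavoprotein *Sdha* was at 1.44 ± 0.52 (SD, n = 5) and the membrane anchor *Sdhc* at 0.87 ± 0.37 (SD, n = 5). A second *Sdha* probe was at 2.60. In complex III, *Uqcrq* was at 1.92 ± 0.24 (SD, n = 5) and the hinge protein *Uqcrh* at 0.24 ± 0.38 (SD, n = 5). In complex V, *Atp5k*, a subunit of the membrane sector, was at 1.81 ± 0.38 (SD, n = 5), and *Atp5g2*, which encodes a copy of the rotor ring subunit c, was at -0.58 ± 0.21 (SD, n = 5).

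Complex IV has several subunits with a broadly expressed form and a form restricted to muscle, testis or lung. Of the restricted forms, *Cox4i2* (lung), *Cox7b2* and *Cox8c* (both testis) were not present: they were well above background in liver on 1, 0 and 0 of the 20 arrays. *Cox8b*, a muscle and brown fat form, was present by the rule but well above background on 4 arrays, with a control ratio of 0.11 ± 0.20 (SD, n = 5). *Cox6a2*, the heart and skeletal muscle form of subunit VIa, had a control ratio of -3.26 ± 0.32 (SD, n = 5), while the probe of its liver form *Cox6a1* was at 0.69 ± 0.31 (SD, n = 5). *Cox7a1*, the heart and muscle form of subunit VIIa, was at -0.16 ± 0.21 (SD, n = 5) and the broad form *Cox7a2* at 0.96 ± 0.28 (SD, n = 5). *Cox6b2*, the testis form of subunit VIb, was at 0.32 ± 0.17 (SD, n = 5) and the broad form *Cox6b1* at 1.56 ± 0.76 (SD, n = 5). The broad forms *Cox7b* and *Cox8a* were at 1.20 ± 0.18 and 0.12 ± 0.25 (SD, n = 5).

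The first comparison asked which subunit genes differed between a dose group and the controls. A gene counted as called when its p in limma, adjusted by Benjamini-Hochberg over all present probes, was under 0.05 and its fold change was over 1.5. At the low and the middle dose 0 of the 79 genes were called, as were 0% of all present probes at either dose. A single gene, *Cox6b2*, was called at the high dose, where it was higher, beside 0.135% of all present probes. The other 78 genes did not pass at any dose.

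At an unadjusted p under 0.05, 6 subunit genes were higher and 0 lower at the low dose, which was 7.59% of the 79 genes beside 4.18% of all present probes for higher and 3.62% for lower. At the middle dose 2 genes were higher (2.53%) and 0 lower, beside 3.75% and 2.94% of all probes. Of the 79 genes 8 were higher and 0 lower at the high dose, beside 6.52% and 4.69%. The members of a complex are measured on the same arrays, so these counts are not counts of independent events. By the brightest probe, all exposed arrays lay above all control arrays for 0 genes at the low dose (0.559% of all probes). This held for 1 gene, *Atp5c1*, at the middle dose (0.527%), and for 0 genes at the high dose (0.936%). Over all 12986 present genes it held for 59, 91 and 139 in order of dose. A second, dimmer probe of *Atp5h* also had all low-dose arrays above all controls (log2 change 0.37, adjusted p = 0.636 by limma). The brightest *Atp5h* probe overlapped them (0.14).

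*Cox6b2* encodes a form of the cytochrome c oxidase subunit that lies at the contact of the dimer, and it is known from testis. Its ratios were 0.56, 0.33, 0.34, 0.11 and 0.26 in the controls, and 0.93, 1.18, 0.69, 1.22 and 0.56 at the high dose. Of the 5 arrays at the high dose 4 lay above every control, and replicate 5 lay level with control replicate 1. The ratios were 0.43, 0.49, 0.37, 0.43 and 0.55 at the low dose, and 0.64, 0.47, 0.51, 0.57 and 0.43 at the middle dose. Both lower doses thus overlapped the controls.

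The log2 change of *Cox6b2* was 0.60 ± 0.11 (SE) at the high dose (adjusted p = 0.0332 by limma), 0.13 at the low dose (adjusted p = 0.782) and 0.20 at the middle dose (adjusted p = 0.781). On slides 1, 2 and 3 the array at the high dose exceeded the control of the same slide by 0.37, 0.85 and 0.36. The probe was dim, with a mean log2 brightness of 7.18, but well above background in liver on all 20 arrays. In the liver channel alone the change was 0.41 (adjusted p = 0.364), and in the reference channel, which holds the same RNA on every array, it was -0.027. With slide as a fixed block the change was 0.54 and the call was lost (adjusted p = 0.0941). The call was also lost without any of control replicates 2, 3, 4 and 5, replicate 3 at the middle dose, or replicates 1, 2 and 4 at the high dose, where the log2 change was 0.52 to 0.60 and the adjusted p 0.0508 to 0.123. Of 4 spermatid markers 3 were present. Their mean ratio ranged from -0.33 to 0.18 over the control arrays and from -0.57 to 0.066 at the high dose. *Prm1*, *Prm2* and *Tnp1* were well above background on 16, 18 and 19 arrays, and *Odf1* on 0. From control to the high dose *Prm1* went from 0.0077 to 0.16, *Prm2* from -0.72 to -1.09 and *Tnp1* from 0.33 to 0.29.

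*Cox7a1* gave the highest estimate of all members at the high dose and did not pass the test. Its ratios were 0.18, -0.34, -0.093, -0.23 and -0.33 in the controls, and 0.43, 0.73, 0.16, 0.76 and 0.16 at the high dose. Control replicate 1 lay above 2 of the exposed arrays and the other controls lay below all of them. At the low dose its ratios were 0.29, 0.18, -0.018, 0.23 and 0.60, and at the middle dose they were 0.45, -0.10, 0.097, 0.49 and 0.41. The log2 change was 0.42 ± 0.15 (SE) at the low dose (adjusted p = 0.636 by limma), 0.43 ± 0.15 (SE) at the middle dose (adjusted p = 0.676) and 0.61 ± 0.15 (SE) at the high dose (adjusted p = 0.138). In the liver channel alone these changes were 0.41, 0.51 and 0.61, and in the reference channel they were -0.032, 0.047 and -0.0056. Of 8 skeletal muscle markers 6 were present, and their mean ratio ranged from -1.45 to -1.08 in the controls and from -1.62 to -1.39 at the high dose. Of 5 heart markers 3 were present, with a mean ratio of -0.66 to -0.10 in the controls and -0.59 to -0.15 at the high dose. Of 3 brown fat markers 2 were present, *Cidea* and *Elovl3*, with a mean ratio of 1.81 to 2.48 in the controls and 2.22 to 2.81 at the high dose, where both were above control. The muscle creatine kinase *Ckm*, the cardiac genes *Myh6* and *Ryr2* and the brown fat protein *Ucp1* were well above background on 0 arrays. By contrast, the skeletal muscle markers *Acta1*, *Mylpf*, *Actn3* and *Tnnc2* were so on 20, as were *Myl7*, *Actc1*, *Cidea* and *Elovl3*. The other muscle and heart markers, *Myl1*, *Tnnt3*, *Myh4* and *Tnni3*, were so on 6, 5, 1 and 12 arrays. The part of these cell types in the *Cox7a1* values was not tested. *Cox6a2*, the other muscle form, had log2 changes of -0.27, -0.29 and -0.18 at the 3 doses in order, none past the test.

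In complex III, *Cyc1*, the cytochrome c1 that hands electrons to cytochrome c, had the highest estimate. Its ratios were 0.77, 0.41, 0.80, 1.20 and 1.07 in the controls, and 1.26, 1.05, 1.12, 1.77 and 1.58 at the high dose. They were 0.97, 0.88, 1.33, 1.75 and 1.39 at the low dose, and 1.08, 1.05, 1.19, 1.15 and 1.22 at the middle dose. The groups overlapped at every dose, and the spread at the middle dose (SD 0.072) was narrower than in the controls (SD 0.30). The log2 change was 0.41, 0.29 and 0.51 in order of dose, with adjusted p of 0.636, 0.781 and 0.275 by limma. The liver channel alone gave 0.23 at the high dose and the reference channel -0.25.

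In complex I the highest estimate belonged to *Ndufs7*, a core subunit that carries an iron-sulfur cluster next to the ubiquinone site. Its ratios were 0.56, 0.40, 0.32, 0.70 and 0.70 in the controls, and 0.99, 0.93, 0.47, 1.36 and 0.92 at the high dose. They were 0.68, 0.74, 0.60, 1.29 and 1.02 at the low dose, and 0.61, 0.51, 0.48, 0.81 and 0.65 at the middle dose. Replicate 3 was the lowest exposed array at all 3 doses, and control replicate 3 was the lowest control, all of them on slide 3. The log2 change was 0.33, 0.076 and 0.40 in order of dose, with adjusted p of 0.636, 0.948 and 0.325 by limma. The most negative estimate of the complex was that of *Ndufb5*, an accessory subunit of the membrane arm, at -0.32 ± 0.16 (SE) at the high dose (adjusted p = 0.465).

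**Figure D2:**
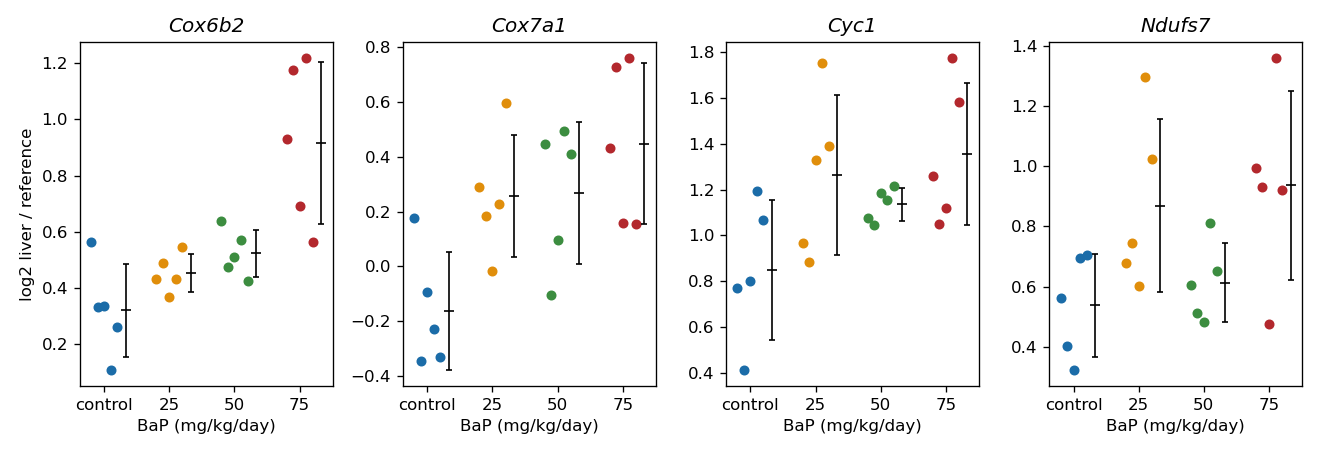
Log2 ratio of liver over reference for *Cox6b2*, *Cox7a1*, *Cyc1* and *Ndufs7* on each of the 20 arrays (points, 5 per group), with the group mean ± SD beside the points. At the high dose 4 of 5 *Cox6b2* values exceed all controls, and the other genes overlap their controls at every dose. The vertical scales differ.

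Other genes with an unadjusted p under 0.05 at some dose were *Cox6a1*, *Cox7b* and *Cox5b* of complex IV, *Uqcr11* of complex III and *Atp5c1* of complex V. *Cox6a1* had a log2 change of 0.44 ± 0.15 (SE) at the low dose (adjusted p = 0.636 by limma), where 3 of its 5 arrays did not exceed the highest control. *Cox7b* was 0.43 ± 0.16 (SE) above control at the low dose (adjusted p = 0.636) and 0.38 at the high dose (adjusted p = 0.379), with -0.0095 at the middle dose. In the reference channel alone *Cox6a1* was at -0.34 and *Cox7b* at -0.26 at the low dose, and their liver channel changes were 0.18 and 0.19. *Atp5c1*, the central stalk subunit gamma of ATP synthase, was at 0.39, 0.41, 0.20, 0.29 and -0.11 in the controls, and at 0.58, 0.74, 0.46, 0.64 and 0.52 at the middle dose. All 5 exposed arrays lay above all 5 controls, but the change of 0.35 ± 0.14 (SE) did not pass (adjusted p = 0.708), and at the high dose the ratios of 0.42, 0.89, 0.10, 0.87 and 0.47 overlapped the controls.

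None of the catalytic and core subunits passed the test at any dose, and their estimates at the high dose follow. *Ndufs1* and *Ndufv1*, which hold iron-sulfur clusters and the NADH site of complex I, were at 0.045 and 0.23. *Sdha* and the iron-sulfur protein *Sdhb* of complex II were at -0.28 and 0.019. The complex III core protein *Uqcrc1* and the Rieske iron-sulfur protein *Uqcrfs1* were both at 0.12. *Cox4i1* and *Cox5b* of complex IV were at 0.14 and 0.45, and *Atp5b*, the catalytic beta subunit of ATP synthase, was at 0.097. The adjusted p of these 9 genes lay between 0.379 (*Cox5b*) and 0.982 (*Sdhb*). The 2 other probes of *Atp5b* gave -0.025 and -0.039, and a second probe of *Uqcrh* gave -0.16 where the brightest gave 0.091. Probes of 1 gene differed in sign for 3 of the 14 genes with several present probes at the high dose.

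The other extremes at the high dose were *Atp5k* in complex V (0.44, adjusted p = 0.527) and *Sdhd*, a membrane anchor of complex II (0.20, adjusted p = 0.629), on the high side. On the low side were *Atp5g3*, another gene for subunit c (-0.093, adjusted p = 0.905), and *Uqcrb* (-0.016, adjusted p = 0.985). The *Sdhd* fit lacked replicate 5 at the middle dose, whose spot was marked as an outlier. *Cox7c* varied most within groups of all members, with control ratios of 0.83, -1.77, -2.30, 0.11 and 0.53. Its within-group SD of 1.38 compares with a median of 0.25 over the 79 genes and 0.22 over all present probes.

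The second comparison took the members together, as a description without a test. At the low dose 68 of 79 genes had a higher estimate than control and 11 a lower one, with a median log2 change of 0.18 (all present genes -0.0095, 47.4% higher). At the middle dose 32 were higher and 47 lower, with a median of -0.050 (all genes -0.0050, 48.7% higher). At the high dose 65 were higher and 14 lower, with a median of 0.15 (all genes -0.00060, 49.9% higher). The direction was thus mostly upward at the lowest and the highest dose and divided at the middle dose, and it did not follow the order of the doses. Ribosomal protein genes, which encode another large complex, had medians of 0.11, 0.062 and 0.14 at the 3 doses, with 59, 52 and 63 of 78 genes higher.

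By complex, all 17 genes of complex V and 30 of 35 genes of complex I were above control at the low dose, with medians of 0.20 and 0.17. Complex III had a median of 0.20 with 6 of 8 genes above control, and complex IV one of 0.23 with 13 of 15. The complex III value was 0.057 with slide as a fixed block, 0.077 in the liver channel alone and 0.105 without replicate 4 of the low dose. Complex II stood at -0.010 with 2 of 4 genes above control. At the high dose the medians were 0.13 (complex I), 0.0079 (complex II), 0.12 (complex III), 0.25 (complex IV) and 0.17 (complex V). At the middle dose they were -0.069, 0.098, -0.13, -0.0020 and 0.0024 in the same order. Differences between complexes were not tested.

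**Figure D3:**
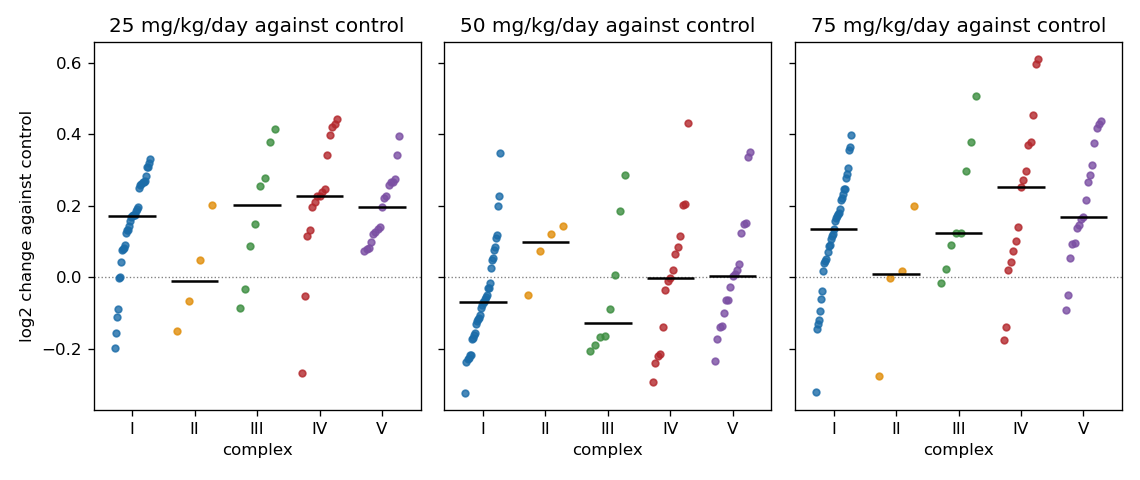
Log2 change against control (vertical axis) of each present subunit gene (points, sorted within a complex) at the low, the middle and the high dose, with the median of each complex as a bar. Most genes of complexes I, III, IV and V lie above 0 at the low and the high dose and on both sides of 0 at the middle dose, and the 4 complex II genes lie on both sides at every dose.

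The same shift was then followed array by array, as the median over the 79 genes of each array's deviation from the control mean. In the controls it was 0.12, -0.041, -0.077, 0.055 and -0.082. At the low dose it was 0.069, 0.21, 0.034, 0.41 and 0.20, at the middle dose 0.040, -0.066, -0.080, 0.063 and -0.075, and at the high dose 0.19, 0.22, -0.047, 0.37 and -0.024. The group means were -0.0043 ± 0.090, 0.18 ± 0.15, -0.023 ± 0.069 and 0.14 ± 0.17 (SD, n = 5) in order of dose. Exposed and control arrays overlapped at every dose.

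The arrays of slide 4, replicate 4 at the low and the high dose, were the highest of all. Of the variance of this median over the 20 arrays, 67.2% lay between slides and 38.1% between groups, and the shares overlap because slides and groups do. On slide 1 the medians at the low, the middle and the high dose stood -0.054, -0.084 and 0.064 from the control of the same slide. On slide 2 they stood 0.25, -0.024 and 0.26 from it, and on slide 3 0.11, -0.0037 and 0.029. The sign at the high dose was thus the same on all 3 slides but the size was not, and at the low dose slide 1 went the other way. Gene by gene, 19 of 79 genes at the low dose, 11 at the middle dose and 31 at the high dose lay above the control on each of slides 1 to 3. Those lying below it on all 3 slides numbered 3, 17 and 6. The same counts were not made over all present genes, so no share stands beside these. Without the arrays of slide 4 the median log2 change was 0.12 at the low dose and 0.099 at the high dose. With slide as a fixed block it was 0.11 at both doses.

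**Figure D4:**
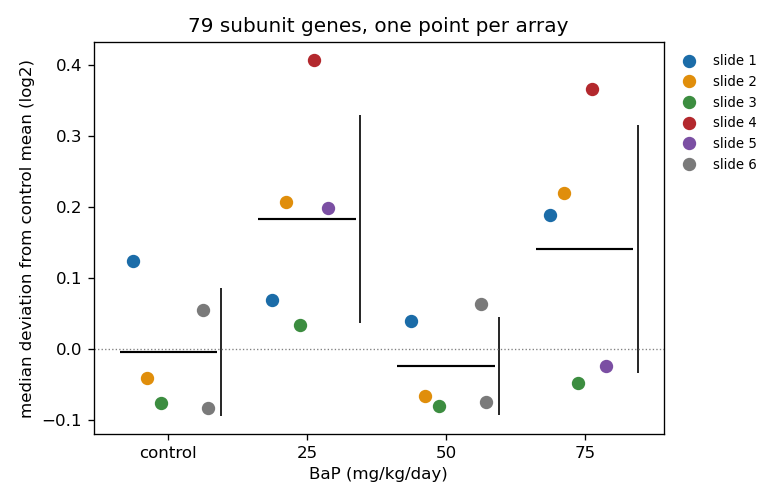
Median deviation of 79 subunit genes from the control mean (log2, vertical axis) for each of the 20 arrays, coloured by slide, with the mean of each group as a bar and ± 1 SD as a line. The 2 arrays of slide 4 are the highest at 0.41 and 0.37, and 2 of 5 arrays at the high dose lie below 0.

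A ratio holds the signal of both channels, so the members were also followed in each channel alone after quantile normalization between arrays. In the liver channel the median log2 change of the members was 0.083, -0.037 and 0.072 in order of dose. In the reference channel, where every array held the same RNA, it was -0.078, 0.049 and -0.053, of the opposite sign at each dose. On slide 4 the median deviation was 0.021 and -0.034 in the liver channel and -0.39 and -0.31 in the reference channel. The high ratios of slide 4 thus went with a low reference signal. What moved the reference signal was not tested. Complex II was near 0 in both channels at the low dose, at 0.00040 (liver) and 0.021 (reference).

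**Figure D5:**
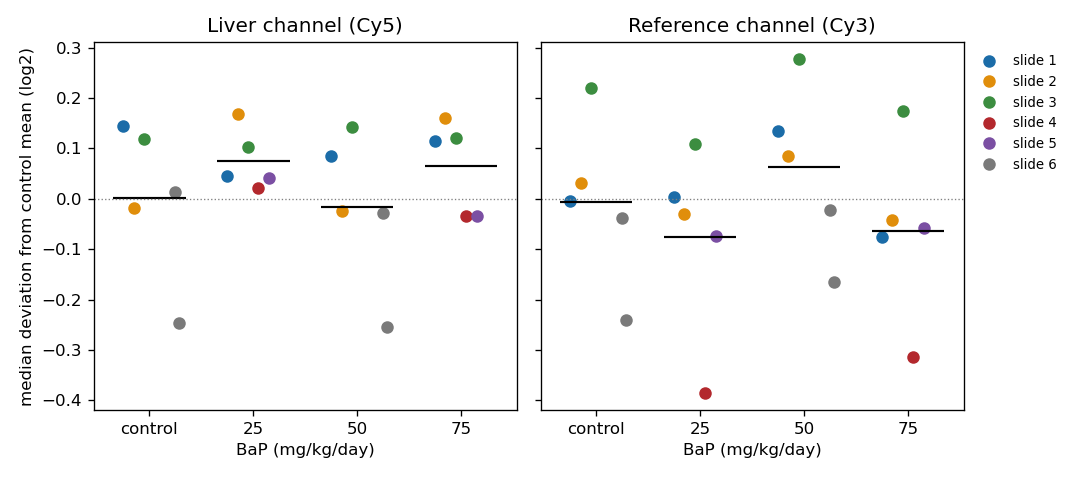
Median deviation of 79 subunit genes from the control mean (log2, vertical axis) in the liver channel (left) and the reference channel (right) for each of the 20 arrays, coloured by slide, with group means as bars. The arrays of slide 4 lie near 0 in the liver channel and lowest, at -0.39 and -0.31, in the reference channel.

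Hepatocyte markers were above control for all 10 present genes at each dose, with medians of 0.31, 0.27 and 0.42, and their mean ratio ranged from 4.64 to 5.91 over the controls and from 5.41 to 5.74 at the high dose. All 3 present red cell markers were above control too, with medians of 0.20, 0.22 and 0.46. Of 6 Kupffer cell markers 5, 5 and 6 were above control in order of dose, and of 5 sinusoidal endothelial markers 4, 5 and 5. These lists stood above 0 at all 3 doses, the middle dose included. The part of any of them in the members' shift was not tested.

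The third comparison asked for a linear trend in dose. The slope was positive for 56 of 79 genes and negative for 23. *Cox6b2* alone passed, with a slope of 0.19 per 25 mg/kg/day (adjusted p = 0.0425 by limma), beside 0.157% of all present probes. At an unadjusted p under 0.05, 4 genes had a rising slope (*Cox6b2*, *Cox7a1*, *Atp5c1* and *Cyc1*) and 0 a falling one, beside 5.07% and 3.51% of all probes. The trend of *Cox6b2* was not called with slide as a fixed block, nor without any of control replicates 2 to 5, replicates 1, 3, 4 and 5 at the low dose, replicates 1 and 4 at the middle dose, or replicates 1, 2 and 4 at the high dose.

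Variation of the members within groups was described over the 20 arrays with group means removed. The median correlation of a gene with the median of the other members was 0.50. It was over 0.5 for 38 genes and below 0 for 11. The highest values were those of *Uqcr11* (0.89), *Ndufb2* (0.88) and *Ndufc1* (0.86), all small accessory subunits, and of *Ndufs7* (0.83). Among those below 0 were *Sdha* (-0.53), *Ndufa10* (-0.25), *Ndufs1* (-0.24), *Atp5a1* (-0.17) and *Atp5b* (-0.14). The alpha and beta subunits of ATP synthase and the flavoprotein of complex II were thus among the 11 genes below 0. Pairs within a complex had a median correlation of 0.20 and pairs from different complexes 0.23. All these values share arrays, slides and the reference channel. No such correlations were made for other genes, so these values show no trait particular to the members.

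*Uqcr11*, the gene that followed the others most closely, encodes a small subunit of complex III. Its ratios were 1.33, 1.28, 1.15, 1.59 and 1.35 in the controls, and 1.45, 1.76, 1.46, 2.00 and 1.93 at the low dose. They were 1.41, 1.15, 1.01, 1.47 and 1.21 at the middle dose, and 1.66, 1.82, 1.32, 2.24 and 1.55 at the high dose. Slide 4 held the highest array at both doses it carried, and slide 3 the lowest control and the lowest array at the middle and the high dose. The log2 change of *Uqcr11* was 0.38 ± 0.15 (SE) at the low dose (adjusted p = 0.636 by limma), -0.089 at the middle dose (adjusted p = 0.938) and 0.38 ± 0.15 (SE) at the high dose (adjusted p = 0.357), and it was not called at any dose.

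Promoters were compared because nuclear genes of the chain are known to share binding sites for NRF1, GABP (also called NRF-2) and YY1. RefSeq windows on build GRCm38.p6, from 250 bases before to 50 bases after each start, were found for 66 of the 82 genes. Each motif was searched on both strands as a run of 8 letters: GCGCATGC for NRF1, CCGGAAGT for GABP and AAGATGGC for YY1. The NRF1 run can overlap its own reverse complement. NRF1 letters were in 13.6% of the members' windows and 3.05% of those of all 27025 genes, GABP letters in 7.58% and 4.31%, and YY1 letters in 15.2% and 3.19%. Any of the 3 was found for 23 members (34.8%) against 9.91% of all genes and 32.8% of 61 ribosomal protein genes. Matches were most frequent in complex III (3 of 4 genes with a window) and least in complex IV (2 of 13).

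The 250 bases before the start are printed for *Uqcr11* and *Cox6a1*, broadly expressed genes with matches, and for *Cox6b2* and *Cox7a1*, the restricted forms with the highest estimates at the high dose. Capitals mark the searched letters. All are read 5′ to 3′ on the strand of the gene, from GRCm38.p6: *Uqcr11* at chr10:80406822-80407071 (minus strand), *Cox6a1* at chr5:115348959-115349208 (minus strand), *Cox6b2* at chr7:4753095-4753344 (minus strand) and *Cox7a1* at chr7:30183921-30184170 (plus strand).
Uqcr11: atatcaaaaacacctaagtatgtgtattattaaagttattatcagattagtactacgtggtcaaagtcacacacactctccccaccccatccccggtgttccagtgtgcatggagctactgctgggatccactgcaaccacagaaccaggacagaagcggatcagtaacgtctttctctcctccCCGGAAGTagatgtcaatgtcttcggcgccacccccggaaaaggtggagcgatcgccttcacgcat
Cox6a1: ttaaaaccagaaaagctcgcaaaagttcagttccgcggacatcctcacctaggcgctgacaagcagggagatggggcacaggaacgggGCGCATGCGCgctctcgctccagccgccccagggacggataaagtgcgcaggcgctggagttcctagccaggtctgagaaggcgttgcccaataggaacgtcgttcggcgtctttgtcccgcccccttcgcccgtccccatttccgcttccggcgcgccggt
Cox6b2: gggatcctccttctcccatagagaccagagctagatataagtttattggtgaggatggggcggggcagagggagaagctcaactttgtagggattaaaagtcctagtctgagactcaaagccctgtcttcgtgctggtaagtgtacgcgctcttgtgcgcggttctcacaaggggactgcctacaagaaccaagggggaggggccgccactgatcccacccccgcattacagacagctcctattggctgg
Cox7a1: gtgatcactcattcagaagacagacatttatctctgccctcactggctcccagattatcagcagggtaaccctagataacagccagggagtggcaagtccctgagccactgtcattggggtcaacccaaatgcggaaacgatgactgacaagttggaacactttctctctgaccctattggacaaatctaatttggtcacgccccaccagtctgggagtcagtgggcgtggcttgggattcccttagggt

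*Uqcr11* held GABP letters upstream and NRF1 letters across its start, and *Cox6a1* held NRF1 letters on both strands in an overlapping run. *Cox6b2* and *Cox7a1* held none of the 3 in the whole window, which says only that these letters are not there. Present members with a match had median log2 changes of 0.15, -0.069 and 0.17 in order of dose (23 genes), and those without had 0.20, -0.033 and 0.16 (42 genes). The 2 sets thus had medians of the same sign at each dose. No test was made.

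The factors that act on these promoters, and other genes of mitochondrial upkeep, were read from the same fit. Of 16 present genes of mitochondrial transcription and biogenesis 0 were called at any dose. The coactivators *Ppargc1a* and *Ppargc1b* stood at 0.43 (adjusted p = 0.539 by limma) and 0.38 (adjusted p = 0.569) at the high dose, *Nrf1* at -0.10, *Gabpa* at -0.23 and *Yy1* at 0.18. *Tfam*, which packages mitochondrial DNA, stood at 0.022. The list median was 0.056, 0.046 and 0.032 in order of dose.

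Assembly factors build the complexes without remaining in them. The list used here was wider and also held genes to which that definition does not apply, cytochrome c (*Cycs*) and the acyl carrier *Ndufab1* among them. Of its 51 genes 42 were present. None of the 42 was called at any dose, and the list medians were 0.042, -0.092 and 0.0071. At an unadjusted p under 0.05, 5 were higher (11.9%), *Ndufab1* among them, and 4 lower (9.52%) at the high dose. Over all present genes these shares were 7.58% and 4.93%. At the middle dose 0 were higher and 6 lower (14.3%), beside 4.4% and 3.06% of all present genes. The complex I factors *Ndufaf7* (-0.54, adjusted p = 0.194) and *Ndufaf4* (0.37, adjusted p = 0.247) lay at the low and high ends at the high dose. Factors for complex IV went both ways: *Cox15* and *Cox18* were at -0.30 and -0.33, and *Cox19* and *Cox20* at 0.31 and 0.25. Their adjusted p was 0.439, 0.503, 0.377 and 0.589 by limma in that order. Of the 42 genes 21 were above control and 21 below at the high dose. The citric acid cycle list, 14 genes all present, had 0 called and medians of -0.0023, 0.092 and -0.075. At the high dose 4 of its genes were above control and 10 below, and citrate synthase (*Cs*) stood at -0.053.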

How the data were processed

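The authors scanned each array and extracted median spot and background intensities in both channels with Feature Extraction software, whose version in the file headers differs from that in the methods. They deposited these raw intensities, the software's processed intensities and, in a separate table, log2 ratios normalized by LOWESS within each array. Here median intensities were background corrected (normexp, offset 50) and loess normalized within arrays, outlier spots were left out, and log2 ratios were averaged per probe. The authors' log2 ratios correlated with these at r of 0.994 to 0.996 across probes, which are not independent replicates. No spot was saturated.

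Presence followed the study's rule (trimmed mean, 5% trim, plus 3 trimmed SDs of 153 negative control spots). Probes were named through RefSeq accessions (23374 probes). Treatment was fitted in limma 3.58.1 (R 4.3.3) on all 20 arrays, 2-sided, with Benjamini-Hochberg adjustment over 27346 probes within a contrast. MAANOVA was not used, and the sample that the study removed is not named, so all were kept. The fits were also run on simulated data. These had no slide effect and planted changes larger than that of *Cox6b2*, so they cannot test its call. Replicates were numbered in accession order, and p-values measure the spread between these samples. The number of arrays limits precision.

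Genes named in full were the called members, in each complex the highest and lowest change at the high dose and control ratio, the 3 lowest p at each dose, fixed core subunits and complex IV forms. Others, such as *Cox7c* and *Uqcr11*, were chosen after their values were seen. The members and lists were chosen with earlier results of these data known. Figures were drawn with matplotlib. Alternatives covered normalization, background, channel, filters, slides, probes, adjustment and single arrays. One member's own values are not reported here.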

Additional observations from a re-analysis of the deposited data

Results flagged for a closer look

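In 3 of 152 groups of 5 arrays tested, over the members' medians by array and the named genes, the highest value stood far from the others by Dixon's ratio. Chance flags about 1 in 20 groups. *Sdha* was at 2.35 in control replicate 3, with the next control at 1.31. *Atp5g2* was at -0.13 in replicate 4 at 50 mg/kg/day, with the next at -0.59. *Cox6a1* was at 1.38 in replicate 5 at 25 mg/kg/day, with the next at 1.11.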

How the results depend on the processing

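No paired analysis was possible because the replicate numbers were given in accession order and the labels tie no sample of a group to one of another. Slides served as blocks instead. No member was called at 25 or 50 mg/kg/day under any alternative. The 1 member called at 75 mg/kg/day, *Cox6b2*, became 0 with the scanner's processed signals, the liver channel alone, slide as a fixed or a random block, control and that dose only, or adjustment over the 3 contrasts together, and ranged from 0 to 1 with single arrays left out. Its adjusted p was 0.0618, 0.364, 0.0941, 0.0225 (with a fold under the threshold), 0.317 and 0.0828 in that order, and 0.014 with the authors' ratios. After the data were seen, fits without slide 4 and on slides 1 to 3 only were added, and both gave 0 (adjusted p = 0.16 and 0.101). The trend count of 1 became 0 with processed signals, the liver channel, probes well above background on all 20 arrays, the fixed block, and both added fits, and ranged from 0 to 1 with arrays left out. The causes were not tested.

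The median control ratio of the members moved from 0.867 to 0.642 with the authors' ratios and to 1.058 with processed signals. Their median log2 change kept its sign at each dose under the alternatives run, at 0.083 to 0.286 (25 mg/kg/day), -0.096 to -0.035 (50 mg/kg/day) and 0.072 to 0.257 (75 mg/kg/day). With single arrays left out it was 0.117 to 0.223, -0.067 to -0.014 and 0.099 to 0.208. Some complex medians moved by more than the spread between arrays. At 25 mg/kg/day that of complex III (0.20) became 0.057 with the fixed block, 0.054 on slides 1 to 3, 0.077 in the liver channel and 0.339 with processed signals, and that of complex IV (0.23) became 0.429 with processed signals. At 75 mg/kg/day that of complex III (0.12) became 0.259 with processed signals.

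Genes that turned sign at 75 mg/kg/day were not called in any of these fits. They were *Sdhb* with the authors' ratios (-0.024), *Sdhc* (0.015) and *Uqcrb* (0.004) without background correction, and *Atp5g3* with processed signals (0.106). In the liver channel they were *Ndufs1* (-0.076), *Ndufv1* (-0.01), *Sdhb* (-0.002), *Cox4i1* (-0.053), *Atp5b* (-0.113) and *Cox8a* (-0.031). With a fixed slide block they were *Uqcrfs1* (-0.028) and *Atp5b* (-0.015), with a random one *Sdhc* (0.002), and with probes averaged *Uqcrh* (-0.033). Without slide 4 *Sdhb* was at -0.05, and on slides 1 to 3 *Sdhc* was at 0.075, *Uqcrfs1* at -0.138 and *Atp5b* at -0.039. With single arrays left out *Sdhc* ranged from -0.108 to 0.121, *Uqcrb* from -0.124 to 0.092, *Uqcrh* from -0.035 to 0.259, *Ndufs1* from -0.002 to 0.105, *Sdhb* from -0.085 to 0.111, *Uqcrfs1* from -0.02 to 0.21 and *Cox8b* from -0.036 to 0.077. Signal over background limits *Cox8b*, well above it on 4 arrays.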
